A study of Mus musculus with 18 samples.

Results

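Cytosolic ribosomal protein genes encode the protein parts of the ribosomes that translate nuclear messages. They were taken as all protein-coding genes whose symbol is Rpl or Rps followed by a number and at most 1 further letter out of a, x, l, n and y, together with Rplp0, Rplp1, Rplp2 and Rpsa and without Rps27l. The rule found 79 of the 25279 genes in the table, 30 of the 40S subunit and 49 of the 60S subunit, and all 79 passed the filter on low counts. The rule does not take in Rps3a1, Fau and some other relatives, which are described separately.

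The libraries are bulk RNA-seq of mouse embryonic stem cells. They came from parental cells and from cells labelled cKO, in which Pou2f1, the gene of the octamer-binding factor Oct1, is conditionally deleted. Both genotypes were sampled undifferentiated at day 0 and at days 3 and 6 of a protocol that induces mesoderm on gelatin. There were 3 libraries in each of the 6 groups and 18 altogether. The sources used here give neither the Cre driver nor the time of deletion nor the number of clones.

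A ribosome has a small 40S subunit, which reads the message, and a large 60S subunit, which joins amino acids. Each subunit needs nearly every one of its proteins in equal amount, so these genes are known for high and closely matched RNA levels in growing cells. Their messages usually begin with a short run of pyrimidines, the 5′ terminal oligopyrimidine (TOP) motif, through which the mTOR pathway and LARP1 set their translation. Free ribosomal proteins such as Rpl5 and Rpl11 can bind Mdm2 and so stabilise p53. Embryonic stem cells are known for active ribosome production, and many ribosomal protein mutations in mice and people give tissue-restricted defects.

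Stretches around the RefSeq start sites (GRCm38.p6) of some of these genes are shown because they carry, or lack, the pyrimidine start that the family is known for. Each covers 30 bases before the start and 20 from it, and capitals mark the longest unbroken run of C and T, of at least 5 bases, that reaches within 10 bases of the start.
Rpl38, chr11:114668550-114668599, plus strand: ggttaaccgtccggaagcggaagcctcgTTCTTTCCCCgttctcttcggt
Rplp2, chr7:141447621-141447670, plus strand: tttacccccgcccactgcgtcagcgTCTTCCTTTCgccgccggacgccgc
Rps12, chr10:23787190-23787239, minus strand: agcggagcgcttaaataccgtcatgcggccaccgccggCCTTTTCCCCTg
Rpl26, chr11:68901536-68901585, plus strand: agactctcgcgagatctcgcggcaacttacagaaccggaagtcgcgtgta
Rpl39, chrX:37085203-37085252, minus strand: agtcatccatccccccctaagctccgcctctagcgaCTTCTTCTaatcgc
Rpl39l, chr16:10170198-10170247, plus strand: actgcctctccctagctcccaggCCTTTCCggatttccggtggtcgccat
In Rpl38 and Rplp2 the annotated start was a C inside such a run. In Rps12 and Rpl39 the longest run lay downstream of the annotated start, though the start of Rpl39 was itself the last base of a shorter run of 5, and in Rpl39l it lay upstream, and Rpl26 had none by this criterion.

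RefSeq promoters, from 250 bases before to 50 after the start, were matched by symbol for 59 of the 79 genes. An annotated start at a C from which at least 5 pyrimidines ran on, that C included, was found in 13 of the 59, 22% against 3.01% of 27025 genes in the promoter table. A gene was counted where any of its listed starts matched, and 9 of the 59 had several. Whether messages in these libraries begin at the annotated base was not tested, so a gene not counted here may still have a TOP start. A run of at least 8 pyrimidines within 10 bases of the start was found in 27 of them, 45.8% against 16.1%. Motifs were searched on both strands. The letters CCGGAAG, the core recognised by ETS factors, occurred in 24 of the 59, 40.7% against 9.93%. The letters AAGATGGC, the core of YY1, occurred in 8.47% against 3.19%; a match to either can overlap a match to the other. CACGTG, the E-box of Myc, occurred in 10.2% against 8.09% and TATAAA in 10.2% against 15.7%. The octamer ATGCAAAT, which Oct1 and other POU factors bind, was in 0 of the 59 genes' windows and in those of 1.97% of all genes, which says only that these letters are not in these windows.

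Library totals ran from 13704958 to 26995420 counts. Levels are given in TMM-scaled CPM, counts scaled to a common library size. Changes are log2 fold changes ± SE from a quasi-likelihood F test fitted over 20267 genes in all 18 libraries, and a gene was called where the Benjamini-Hochberg adjusted p was under 0.05. Since the labels do not say whether libraries came from separate cultures, the p-values measure only the spread between these libraries. Pou2f1 lay between 123 and 142 CPM in the parental libraries and between 62.2 and 95.4 CPM in the cKO libraries. The summed level of all 5 pluripotency markers was 3480 to 3552 CPM in parental and 4138 to 4470 CPM in cKO cells at day 0, and that of all 5 fibroblast or feeder markers was 863 to 925 and 256 to 265 CPM. Of the 5 pluripotency markers 1 was called higher and 0 lower at day 0, with a median log2 fold change of 0.09. Of the 5 fibroblast or feeder markers 0 were called higher and 4 lower. The shares over all tested genes were 15.1% higher and 16.5% lower. At day 3 the 3 streak or mesoderm markers in the table summed to 271 to 354 CPM in parental and 29.2 to 75.01 CPM in cKO cells, and the 3 blood or endothelium markers to 17.9 to 18.2 and 2.50 to 3.16 CPM. At day 6 the streak or mesoderm sum was higher in cKO cells, 1.88 to 2.74 CPM in parental against 12.6 to 39.01 CPM. The blood or endothelium sum then overlapped, 7.18 to 9.83 CPM in parental and 4.05 to 11.7 CPM in cKO cells. Neural markers, 5 in all, summed to 345 to 385 CPM in parental and 14.7 to 71.2 CPM in cKO cells at day 6, and 5 endoderm markers to 37.0 to 40.8 and 108 to 110 CPM. The pluripotency sum was 214 to 219 CPM in parental and 25.1 to 46.8 CPM in cKO cells at day 6. The fibroblast or feeder sum was at least 24.4 CPM and at most 29 CPM over both genotypes at day 3, and 909 to 961 CPM in parental and 1386 to 1529 CPM in cKO cells at day 6. Genes of the mitochondrial genome held 2.09% to 2.18% of counts in parental and 1.29% to 1.44% in cKO libraries of day 0. The shares were 5.80% to 6.16% against 5.22% to 5.50% in day 3 libraries and 3.435% to 3.56% against 4.44% to 4.58% in day 6 libraries. The part of these differences in the results below was not tested.

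Library cKO day 0 replicate 3 stood apart from replicates 1 and 2 of its group, and cKO day 6 replicate 2 from its own 2 partners. For the whole family, counts of called genes are therefore given with and without them, as are most members described from those days where they move. Counts by subunit, counts of the other gene lists and genes outside the family are given with all libraries only. In the third cKO library of day 0, 75 of the 79 genes were at their highest of the 6 day 0 libraries. In cKO day 6 replicate 2, 60 of the 79 were at their lowest of the 6 day 6 libraries. Day 0 libraries carry another name prefix than those of days 3 and 6. Rows of 162 pseudogenes named after ribosomal protein genes held 0.534% to 0.545% of the family's counts at day 0 and 1.76% to 1.93% at days 3 and 6, so levels were not compared between day 0 and later days. The median gene of the family shared 44.2% of its 50-base stretches with another gene, within a range from 0 to 94.4%, which makes the split of reads with pseudogenes uncertain.

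At day 0 the family took a larger share of all counts in cKO than in parental cells. The share was 5.20%, 5.29% and 5.32% in the parental libraries and 5.78%, 5.86% and 7.18% in the cKO libraries, so that the groups did not overlap and 1 cKO library lay far above the rest. At day 3 it was 5.89%, 6.04% and 5.90% in parental and 6.19%, 5.66% and 5.99% in cKO libraries, which overlapped. At day 6 it was 3.24%, 3.34% and 3.25% against 3.22%, 2.54% and 3.04%, with every cKO library below every parental one. The cKO minus parental difference was 1.005 percentage points at day 0 (exact two-sided permutation p = 0.1), 0.00203 at day 3 (exact permutation p = 1) and -0.344 at day 6 (exact permutation p = 0.1), and 0.1 is the smallest p that 3 against 3 libraries allow. Without cKO day 0 replicate 3 the day 0 difference was 0.551, and without cKO day 6 replicate 2 the day 6 difference was -0.146. Counted without the 7 genes of chromosome 11, the share was 4.73% to 4.84% in parental and 5.40% to 6.72% in cKO libraries at day 0. It was 5.23% to 5.33% against 5.185% to 5.67% at day 3 and 2.87% to 2.96% against 2.335% to 2.95% at day 6, where the groups then overlapped. In bulk RNA, fewer cells with high levels and less RNA per cell cannot be told apart.

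**Figure D1:**
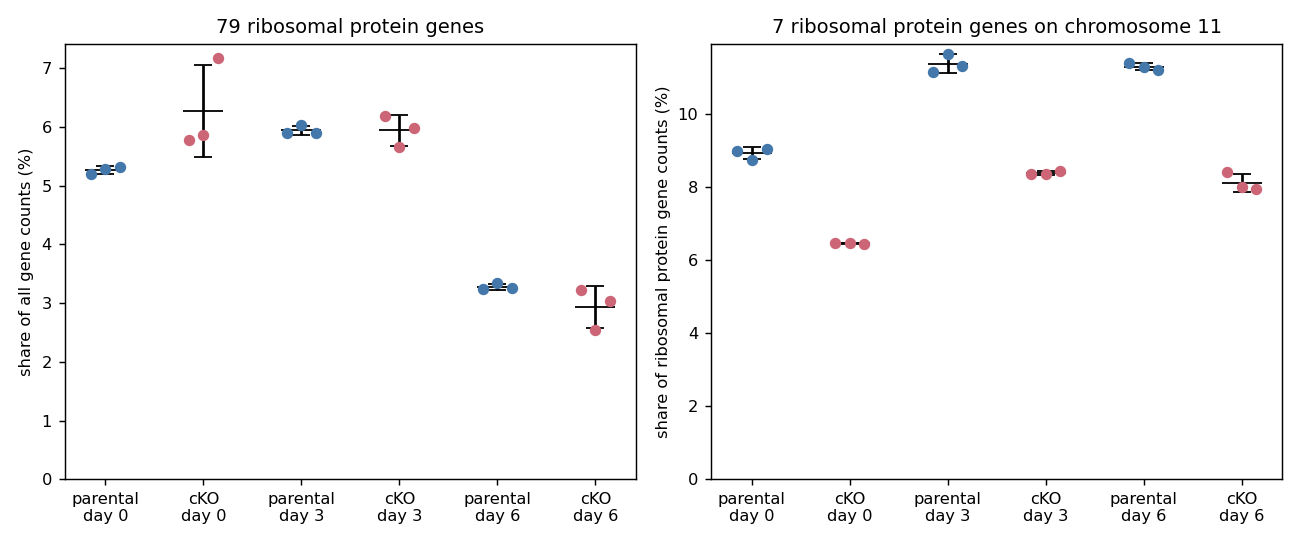
Left, share of all gene counts in the 79 ribosomal protein genes (y axis, %), and right, share of the 79 genes' counts in the 7 genes of chromosome 11 (y axis, %), for the 6 groups; points are libraries, bars the mean ± SD of 3 libraries. The left panel drops from 5.94% on average in parental day 3 libraries to 3.28% at day 6, and in the right panel every cKO library lies below every parental library of its day.

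Per length of annotated exon, Rplp1, a protein of the flexible stalk that recruits elongation factors, had the highest mean level in each of the 6 groups, 2524 CPM per kb in parental cells at day 0, 1887 at day 3 and 775 at day 6. The order below it differed between days. In parental cells it went on with Rpl4 (1606 CPM per kb) and Rpl8 (1373) at day 0, Rpl19 (1381) and Rpl23a (1361) at day 3, and Rpl23a (669) and Rpl19 (617) at day 6. At the low end over all libraries were Rps15a with 63.1, Rpl24 with 49.8, Rpl39l with 20.03, Rpl10l with 11.5 and Rpl3l with 0.491 CPM per kb. The last 3 are copies known for use in restricted tissues. Exon lengths are unions over all annotated transcripts, 6270 bases for Rps15a, so that long rare forms lower the level per kb.

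At day 0, 53 of the 79 genes were higher in cKO cells and 1 was lower, against 15.1% and 16.5% of all tested genes. The median log2 fold change was 0.31 over the family and 0.00 over all tested genes. It was -0.01 over 4403 other genes in the same range of CPM as the family without its 3 restricted copies. Of the 40S genes 27 of 30 rose and 0 fell (median 0.36), and of the 60S genes 26 of 49 rose and 1 fell (median 0.26). Outside chromosome 11 and the 3 restricted copies, changes ran from 0.07 to 0.61. Without cKO day 0 replicate 3, 29 rose, all of them among the 53, and 7 fell, all on chromosome 11, and the median was 0.17. The counts by subunit above are with all libraries and depend on that library. Without it the 40S gene Rps27a was called lower (-0.35, adjusted p = 0.0118). The 40S genes Rps10 and Rps18 were then not called (adjusted p = 0.128 and 0.181). The split of the 29 by subunit is not given here. Every cKO library lay above every parental one in 62 genes and below in 2, against 25.7% and 26.7% of all tested genes. With replicates 1 and 2 of that group summed as 1 library, since they were the most alike of all pairs, 60 rose and 1 fell.

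Rpl37a, a zinc-binding protein of the 60S subunit, had the smallest adjusted p. It stood at 320, 349 and 346 CPM in parental and at 448, 478 and 618 CPM in cKO libraries, 0.61 ± 0.09 (adjusted p = 6.13e-05). Rps19, a 40S protein needed to mature the small subunit and often mutated in Diamond-Blackfan anaemia, stood at 511, 556 and 535 CPM in parental and at 715, 724 and 980 CPM in cKO libraries, 0.59 ± 0.09 (adjusted p = 8.27e-05). For both genes every cKO library exceeded every parental one, and the third cKO library was the highest. Without it Rpl37a changed by 0.45 and Rps19 by 0.43 (adjusted p = 0.000138 and 0.000107).

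The 3 genes of the stalk, Rplp0, Rplp1 and Rplp2, all rose at day 0. Rplp0, the stalk's base, was at 1663, 1733 and 1725 CPM in parental and at 2109, 2142 and 2575 CPM in cKO libraries, 0.41 ± 0.07 (adjusted p = 0.000262). Rplp2 was at 752, 799 and 765 CPM against 966, 1045 and 1322 CPM, 0.53 ± 0.09 (adjusted p = 0.000215). Rplp1 changed by 0.45 ± 0.10 (adjusted p = 0.00193). Without the third cKO library, the highest for all 3, the changes were 0.32 for Rplp0, 0.38 for Rplp2 and 0.27 for Rplp1, each still called. As a share of the family's own counts, which does not depend on scaling between libraries, the stalk held 6.53% to 6.77% in parental and 7.35% to 7.66% in cKO libraries at day 0. It held 5.601% to 5.69% against 6.11% to 6.16% at day 3 and 4.83% to 4.98% against 5.96% to 6.51% at day 6, with no overlap of the genotypes at any of the 3 days.

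Rps2, a 40S protein at the entry channel of the message, was at 2102, 2041 and 2042 CPM in parental and at 2637, 2464 and 2928 CPM in cKO libraries of day 0, 0.38 ± 0.07 (adjusted p = 0.000239). Every cKO library was above every parental one, and without the third cKO library the change was 0.31 (adjusted p = 0.000809). The smallest differences belonged to Rpl5, which carries the 5S RNA into the 60S subunit, with 0.07 ± 0.08 (adjusted p = 0.61), and to Rpl3, a protein near the peptidyl transferase centre, with 0.07 ± 0.07 (adjusted p = 0.509). Rpl5 stood at 493, 464 and 496 CPM in parental and at 450, 463 and 608 CPM in cKO libraries, which overlapped.

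The 40S genes' share of the family's counts, counted outside chromosome 11, was 43.5% to 43.7% in parental and 44.6% to 45.0% in cKO libraries at day 0. At day 3 it was 40.8% in the parental libraries and 41.0% to 41.3% in the cKO libraries, and at day 6 42.6% to 42.7% against 43.2% to 43.6%. The genotypes did not overlap at any of the 3 days.

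The 7 genes on chromosome 11, Rpl19, Rpl23, Rpl23a, Rpl26, Rpl27, Rpl38 and Rps27a, are given apart from the others. Their share of the family's counts was 8.74% to 9.05% in parental and 6.44% to 6.47% in cKO libraries at day 0, 11.2% to 11.7% against 8.34% to 8.45% at day 3, and 11.2% to 11.4% against 7.95% to 8.40% at day 6. The genotypes were apart at all 3 days on this scale-free measure. The median fold change of the 7 was -0.20 at day 0, -0.44 at day 3 and -0.51 at day 6. Over the 1490 tested genes of chromosome 11 it was -0.35, -0.40 and -0.48. The 72 family members elsewhere had medians of 0.32, 0.09 and -0.09. Since the genes of chromosome 11 were lower as a group in cKO cells at every day, a difference of these 7 genes that follows the deletion of Pou2f1 and one shared by the chromosome in this cKO line cannot be told apart. The same holds for every other gene of chromosome 11 named here. The number of chromosome 11 copies was not tested.

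Rpl26, a 60S protein that in human cells also binds the p53 message, was the family's most reduced gene outside the restricted copies at each day. At day 0 it stood at 751, 764 and 790 CPM in parental and at 555, 557 and 694 CPM in cKO libraries, -0.35 ± 0.09 (adjusted p = 0.00438). At day 3 it was at 843, 929 and 862 CPM against 672, 564 and 622 CPM, -0.50 ± 0.09 (adjusted p = 0.000475). At day 6 it was at 415, 435 and 413 CPM against 274, 229 and 267 CPM, -0.71 ± 0.09 (adjusted p = 4.29e-06). With all libraries it was the 1 family member called lower in cKO cells at all 3 days, and the genotypes did not overlap at any day. With cKO day 0 replicate 3 left out, all 7 genes of chromosome 11 were called lower at day 0, as they were at days 3 and 6.

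Rpl38, whose loss in the Tail short mouse disturbs the translation of Hox messages and the axial skeleton, was at 393, 413 and 411 CPM in parental and at 305, 331 and 423 CPM in cKO libraries at day 0. The third cKO library lay above all parental ones, and the change was not called (-0.20 ± 0.11, adjusted p = 0.19). With that library left out, the day 0 change was -0.35 and was called (adjusted p = 0.0156). At day 3 Rpl38 was at 445, 503 and 468 CPM against 376, 316 and 349 CPM, -0.44 ± 0.11 (adjusted p = 0.00922), a call lost without cKO day 3 replicate 2 (-0.38; adjusted p = 0.0571). At day 6 it was at 244, 261 and 234 CPM against 176, 131 and 147 CPM, -0.70 ± 0.11 (adjusted p = 6.83e-05). Both later days had every cKO library below every parental one.

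Rps27a, made as a fusion of ubiquitin with a 40S protein, was at 922, 1080 and 997 CPM in parental and at 770, 651 and 747 CPM in cKO libraries at day 3, -0.47 ± 0.10 (adjusted p = 0.00238). At day 6 it was at 516, 524 and 473 CPM against 360, 276 and 318 CPM, -0.67 ± 0.10 (adjusted p = 2.93e-05). Rpl19, a 60S protein that reaches into a bridge between the subunits, changed by -0.46 ± 0.10 (adjusted p = 0.00219) at day 3 and by -0.50 ± 0.10 at day 6. Rpl23 changed by -0.33 ± 0.07 (adjusted p = 0.00314) and -0.49 ± 0.07 (adjusted p = 2.89e-05). Rpl23a, which lies at the mouth of the exit tunnel where the signal recognition particle docks, changed by -0.33 ± 0.09 and -0.51 ± 0.09 (adjusted p = 0.000104 at day 6). In none of these genes did the cKO and parental libraries of day 3 or day 6 overlap.

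**Figure D2:**
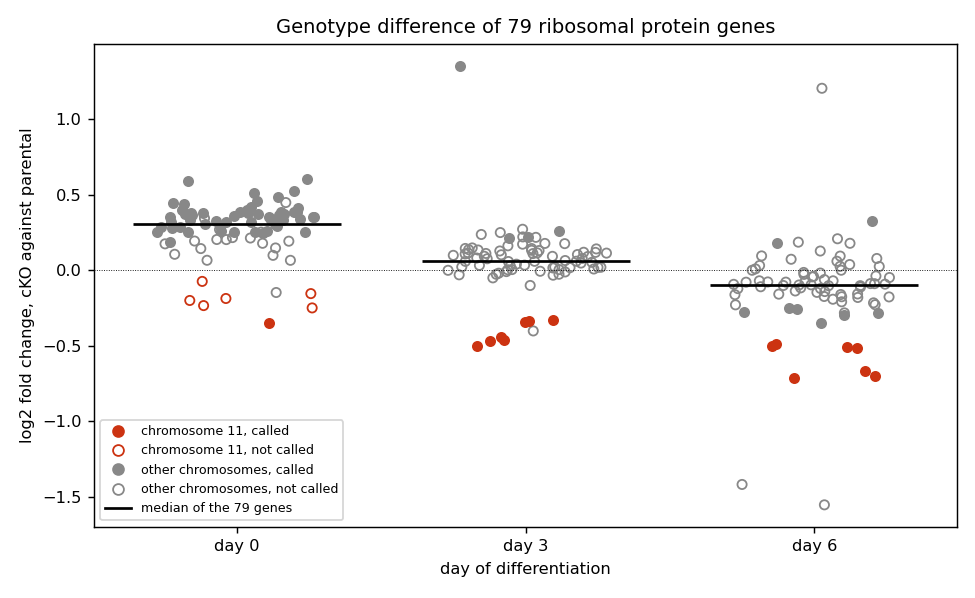
Log2 fold change of cKO against parental cells (y axis) for the 79 genes at days 0, 3 and 6 (x axis, points spread sideways at random); red points are the 7 genes on chromosome 11, filled points were called at an adjusted p under 0.05, and the line is the family's median. The medians are 0.31, 0.07 and -0.10, and the red points lie below the line at each day; the points beyond 1 in either direction are the restricted copies Rpl39l, Rpl10l and Rpl3l.

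At day 3, 4 of the 79 genes were higher in cKO cells and 7 were lower, against 6.32% and 9.39% of all tested genes. The 7 were the genes on chromosome 11, so that 0 of the other 72 fell. The family's median change was 0.07, beside -0.00 over all tested genes and 0.05 over the 4403 other genes in its range of CPM. A fit of the day 3 libraries alone called 23 higher, with a family median of 0.07 beside 0.00 over all tested genes. The 6.32% belongs to the fit of all 18 libraries, and the share of all tested genes called in the day 3 fit is not given here. The 4 that rose were Rpl13a, Rps2, Rpl30 and the restricted copy Rpl39l, and Rpl13a, Rps2 and Rpl30 were also among the 53 of day 0.

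Rpl13a, which can leave the ribosome to silence messages in human myeloid cells, was at 378, 408 and 404 CPM in parental and at 516, 439 and 471 CPM in cKO libraries of day 3, 0.26 ± 0.07 (adjusted p = 0.0172). Rps2 was at 1554, 1521 and 1565 CPM against 1930, 1713 and 1772 CPM, 0.22 ± 0.07 (adjusted p = 0.0266). Rpl30 changed by 0.21 ± 0.07 (adjusted p = 0.0473). For Rpl13a and Rps2 every cKO library was above every parental one, with the first cKO library highest. Every cKO library lay above every parental one in 13 genes and below in 7, against 19.3% and 20.8% of all tested genes. The number that rose was 1 without any single parental library or without cKO day 3 replicate 3, and 0 without cKO day 3 replicate 1. The number that fell was 4 without cKO day 3 replicate 2. The smallest differences were those of Rpl31 and Rpl35a, 0.00 in both.

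At day 6, 2 of the 79 genes were higher in cKO cells and 13 were lower, against 19.9% and 25.7% of all tested genes. The family's median was -0.10, close to the -0.09 of all tested genes but below the 0.02 of the 4403 other genes in its range of CPM. Under other scalings and filters the median of all genes moved between -0.16 and -0.00, and the family's minus that of all genes was -0.01 in each. Without cKO day 6 replicate 2 the family's median was -0.04. Every cKO library lay above every parental one in 5 genes and below in 28, against 20.9% and 30.6% of all tested genes. The 13 were the 7 genes of chromosome 11 together with Rpl17, Rpl35a, Rpl39, Rps7, Rps10 and Rps18. Of these, Rpl35a, Rpl39, Rps7, Rps10 and Rps18 were 5 genes that had been higher in cKO cells at day 0. With cKO day 0 replicate 3 left out, only Rps7 among the 5 was still called at day 0 (0.23, adjusted p = 0.0334). The adjusted p of the others was then 0.0579 to 0.181. Rpl35a and Rps10 are among the genes mutated in Diamond-Blackfan anaemia. Without cKO day 6 replicate 2, 3 were higher and 12 were lower. Rpl35a, Rpl39 and Rps10 were then not called. Newly called were Rpl6 (-0.18, adjusted p = 0.0418) and the restricted copy Rpl10l (-6.06, adjusted p = 0.00102) as lower. Rps26 was newly called as higher (0.29, adjusted p = 0.00687).

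Rplp0 was at 809, 835 and 787 CPM in parental and at 1036, 980.3 and 1032 CPM in cKO libraries of day 6, 0.33 ± 0.07 (adjusted p = 0.00141). Rps2 was at 1060, 1095 and 1053 CPM against 1272, 1135 and 1234 CPM, 0.18 ± 0.07 (adjusted p = 0.0309), and its day 6 call was lost without any of 4 libraries, parental replicates 1 and 3 and cKO replicates 1 and 3. With all libraries Rps2 was the 1 family member called higher at all 3 days. Its calls at days 3 and 6 were lost with total counts (adjusted p = 0.107 and 0.24). They were also lost with TMM computed without chromosome 11 (adjusted p = 0.0502 and 0.0569). The day 3 call was lost too without any single parental day 3 library and without cKO day 3 replicate 1 or 3. For Rplp0 and Rps2 every cKO library was above every parental one at day 6. Rps7, a 40S protein that can bind Mdm2, was at 366, 395 and 381 CPM in parental and at 326, 276 and 296 CPM in cKO libraries, -0.35 ± 0.08 (adjusted p = 0.00225). Rpl39, a small 60S protein that lines the exit tunnel, was at 129, 144 and 128 CPM against 124, 89.3 and 113 CPM, -0.30 ± 0.11 (adjusted p = 0.0352). The second cKO library was the lowest for both genes. Without it Rps7 changed by -0.29 (adjusted p = 0.00205), and Rpl39 stood at -0.18 and was not called (adjusted p = 0.171). Rpl4 was among the smallest differences, at 0.00.

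**Figure D3:**
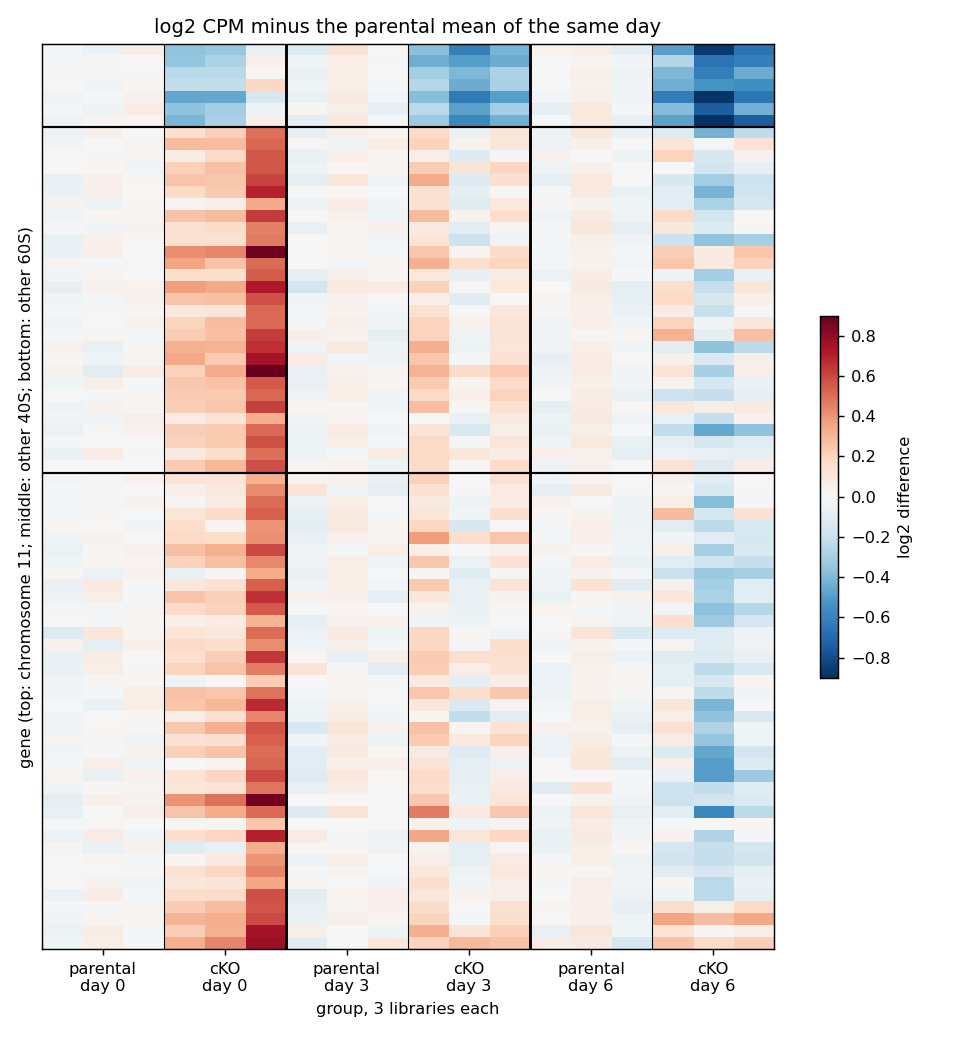
Log2 CPM of 76 genes (rows, without the 3 restricted copies) in the 18 libraries (columns, 3 per group) minus the mean of the 3 parental libraries of the same day; red is higher and blue lower, and the top block holds the 7 genes on chromosome 11. The third cKO library of day 0 is red in nearly all rows, as 75 of the 79 genes were highest there, while the top block is mainly blue in cKO columns.

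Between day 3 and day 6 nearly the whole family fell in both genotypes. In parental cells 78 of the 79 genes fell and 0 rose, against 32.7% and 32.6% of all tested genes, with a median change of -1.01 beside 0.00 over all tested genes. In cKO cells 79 fell and 0 rose, against 34.8% and 31.3%, with a median of -1.18 beside -0.06. The 1 gene not called in parental cells was Rpl3l, which had at most 5 counts in any of those libraries. The family's share of counts at day 6 was 0.551 of that at day 3 in parental and 0.493 in cKO cells (exact permutation p = 0.1 for each, the smallest possible). Among 4403 other genes in the same range of CPM as the broadly expressed members, the median change was -0.20 in parental and -0.22 in cKO cells. Every day 6 library lay below every day 3 library for 79 genes in parental and 78 in cKO cells and above for 0, while this held for 37.2% and 35.4% of all tested genes and the opposite for 37.7% and 30.0%.

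Among the 76 genes without the restricted copies the fall ran from -1.54 to -0.47 in parental and from -1.497 to -0.51 in cKO cells, and 69 and 74 of them lay between -1.5 and -0.75. The 40S genes had a median of -0.97 in parental and -1.12 in cKO cells, and the 60S genes -1.06 and -1.21. The 7 genes of chromosome 11 had medians of -1.02 and -1.20, and the other 72 had -1.003 and -1.18.

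Rpl4, whose loop reaches the exit tunnel, had the smallest adjusted p in parental cells. It went from 2262, 2260.0 and 2252 CPM at day 3 to 969, 1036 and 964 CPM at day 6, -1.19 ± 0.06 (adjusted p = 4.66e-12). In cKO cells it went from 2317, 2200.0 and 2299 CPM to 980.1, 991 and 999 CPM, -1.20 ± 0.06 (adjusted p = 4.04e-12). The days lay far apart, and the genotypes overlapped on each day. Rpl7 changed by -1.28 ± 0.07 in parental and -1.44 ± 0.07 in cKO cells (adjusted p = 1.75e-12), and Rpl7a by -1.23 ± 0.07 and -1.39 ± 0.07. Rplp0 changed by -1.37 ± 0.07 and -1.15 ± 0.07.

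Rps12, a 40S protein whose counterpart in Drosophila takes part in cell competition, fell most among the broadly expressed genes in parental cells. It went from 1450, 1570 and 1535 CPM to 539, 525 and 507 CPM, -1.54 ± 0.10 (adjusted p = 1.75e-10), and changed by -1.47 ± 0.10 in cKO cells. Rplp2 and Rps2 fell least in both genotypes. Rplp2 went from 315, 336 and 360 CPM to 255, 257 and 219 CPM in parental cells, -0.47 ± 0.09 (adjusted p = 0.000189), and by -0.51 ± 0.09 in cKO cells (adjusted p = 7.42e-05). Rps2 changed by -0.53 ± 0.07 (adjusted p = 9.66e-07) and -0.57 ± 0.07 (adjusted p = 3.43e-07). Rplp2 thus made up 9.57% to 10.7% of the stalk's counts in parental libraries at day 3 and 15.8% to 17.8% at day 6. In the stretches shown above, the annotated start of Rplp2 lay inside its pyrimidine run, while the run of Rps12 lay downstream of its start. A relation of such runs to the size of the fall was not tested.

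**Figure D4:**
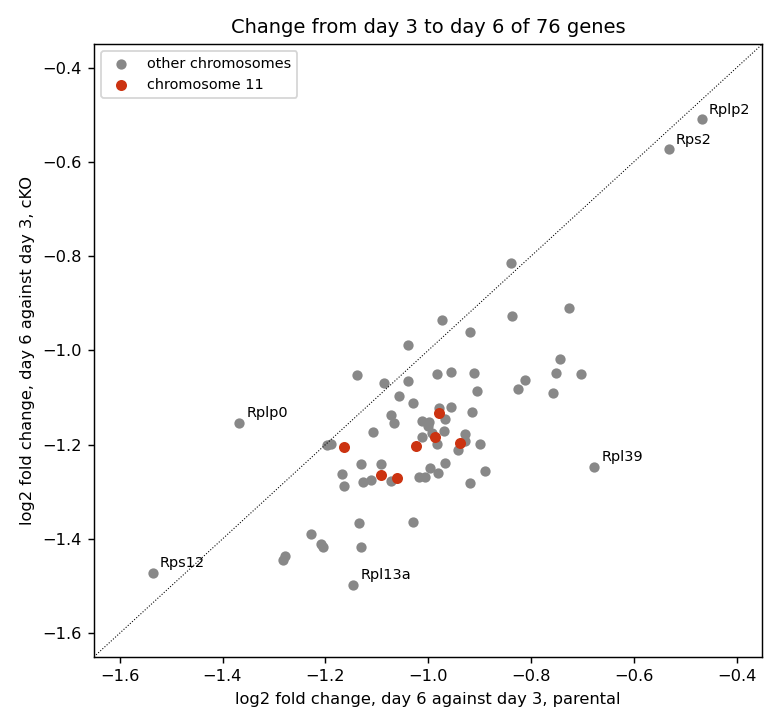
Log2 fold change from day 3 to day 6 in parental (x axis) and cKO cells (y axis) for 76 genes, without the restricted copies; red points are the 7 genes on chromosome 11 and the dotted line marks equal change. All points lie below 0 on both axes, and 69 of the 76 lie below the dotted line, where the change in cKO cells was more negative.

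The change from day 3 to day 6 was more negative in cKO cells for 5 genes and less negative for 0, against 13.6% and 12.4% of all tested genes. The family's median difference was -0.17, beside -0.07 over all tested genes. Rpl39 differed most of the 5. It went from 197, 231 and 214 CPM to 129, 144 and 128 CPM in parental cells, -0.68 ± 0.11, and from 295, 227 and 252 CPM to 124, 89.3 and 113 CPM in cKO cells, -1.25 ± 0.11. The difference was -0.57 ± 0.16 (adjusted p = 0.012). The cKO libraries were above or within the parental range at day 3 and below all of it at day 6. Rpl13a differed by -0.35 ± 0.10 (adjusted p = 0.0163), Rps7 by -0.36 ± 0.12 (adjusted p = 0.0288), the X-linked 40S gene Rps4x by -0.30 ± 0.10 (adjusted p = 0.0387) and Rpl30 by -0.29 ± 0.10 (adjusted p = 0.0431).

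The number of such genes depended on single libraries. It was 10 without cKO day 3 replicate 2 or without cKO day 6 replicate 1, and 8 without cKO day 6 replicate 2. It was 3 without parental day 3 replicate 1 or parental day 6 replicate 1, and 2 without parental day 3 replicate 3, cKO day 3 replicate 3 or parental day 6 replicate 2. Without cKO day 3 replicate 1 it was 1. The difference for Rpl39 was called in each of these fits.

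The genotype difference itself was smaller at day 3 than at day 0 for 5 genes and larger for 0, against 9.12% and 9.47% of all tested genes. The family's median difference was -0.22, beside -0.03 over all tested genes. The 5 were Rpl37a (-0.50 ± 0.13; adjusted p = 0.0109), Rps19 (-0.45 ± 0.13; adjusted p = 0.0236), Rps23, a 40S protein of the decoding centre (-0.40 ± 0.12; adjusted p = 0.0279), Rpl14 (-0.37 ± 0.12; adjusted p = 0.0343) and Rplp0 (-0.30 ± 0.10; adjusted p = 0.0494). Rpl37a was at 300, 302 and 297 CPM in parental and at 355, 287 and 323 CPM in cKO libraries of day 3, where the groups overlapped. Rps19 was at 530, 537 and 523 CPM against 629, 538 and 595 CPM, with the second cKO library close to the parental range. This comparison spans both name prefixes, but each genotype difference was taken within 1 of them. Without cKO day 0 replicate 3 the number was 2 and the median -0.094. The number was 10 without cKO day 0 replicate 1 and 8 without its replicate 2. It was 1, 2 and 3 without parental day 0 replicates 1, 2 and 3. It was 1 without parental day 3 replicate 2 or cKO day 3 replicate 2, 2 without parental day 3 replicate 3 and 3 without cKO day 3 replicate 3.

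The 3 restricted copies are given by their counts on each day. Rpl39l, a copy of Rpl39 known from the male germ line, had 684, 758 and 725 counts in parental and 716, 640 and 981 counts in cKO libraries of day 0. It had 11, 6 and 9 counts against 24, 11 and 21 at day 3, and 1, 1 and 1 against 1, 6 and 0 at day 6. Its share of the joint counts of Rpl39 and Rpl39l was 18.7% to 19.4% in parental and 17.7% to 19.5% in cKO libraries at day 0, which overlapped. At day 3 that share was at most 0.44% in any library. The day 3 change of Rpl39l was 1.35 ± 0.38 (adjusted p = 0.0186), at 0.643, 0.226 and 0.336 CPM against 1.05, 0.682 and 1.11 CPM. The call was lost without parental day 3 replicate 2 or 3 and without cKO day 3 replicate 1 or 3.

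Rpl10l, a retrogene copy of the X-linked Rpl10 that serves in male meiosis, had 419, 549 and 410 counts in parental and 467, 466 and 654 counts in cKO libraries of day 0. It had 31, 73 and 81 against 43, 57 and 41 counts at day 3, and 15, 6 and 8 against 0, 10 and 0 counts at day 6. A count of 0 covers any level up to 3 counts per library. Rpl3l, known from heart and skeletal muscle, had 39, 41 and 37 against 15, 25 and 51 counts at day 0 and at most 6 counts in any later library. With all libraries neither gene differed past the threshold between genotypes at any day. With cKO day 6 replicate 2 left out, Rpl10l was called lower in cKO cells at day 6 (-6.06 ± 1.44, adjusted p = 0.00102). That library held all 10 counts of Rpl10l in the cKO libraries of that day. At these counts only large differences could have been called.

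**Figure D5:**
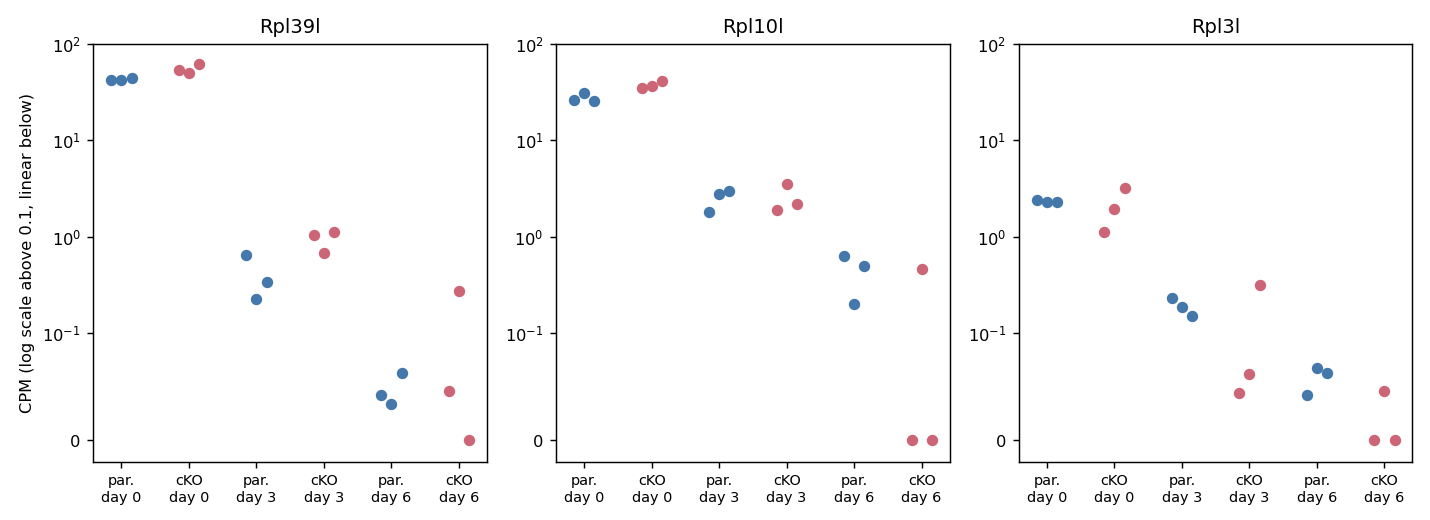
CPM (y axis, logarithmic above 0.1 and linear below) of Rpl39l, Rpl10l and Rpl3l in the 6 groups (par., parental); each point is 1 library. Rpl39l stood at 42.6 to 61.4 CPM at day 0, whose libraries were not compared with those of later days, and at day 6 no library exceeds 0.634 CPM for any of the 3 genes.

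Of 10 relatives outside the naming rule, 6 rose and 2 fell in cKO cells at day 0, 0 rose and 1 fell at day 3, and 1 rose and 3 fell at day 6. Over all tested genes the shares were 15.1% and 16.5%, 6.32% and 9.39%, and 19.9% and 25.7%. All 10 fell from day 3 to day 6 in each genotype, as did 32.7% of all tested genes in parental and 34.8% in cKO cells. Rps3a1, a 40S protein, changed by 0.38 ± 0.07 (adjusted p = 0.000657) at day 0. Rack1, a 40S scaffold protein whose gene lies on chromosome 11, changed by -0.22, -0.31 and -0.54 at days 0, 3 and 6 (adjusted p = 0.0175, 0.00337 and 6.45e-06). Rpl22l1, which can take the place of Rpl22, made up 25.7% to 26.4% of the pair's counts in parental and 20.3% to 21.1% in cKO libraries at day 0. At day 6 it made up 13.2% to 14.1% against 11.1% to 11.3%, and at day 3 the genotypes overlapped.

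Genes that build ribosomes also fell from day 3 to day 6. Of all tested genes 32.7% fell and 32.6% rose in parental cells, and 34.8% fell and 31.3% rose in cKO cells. All 44 genes of a ribosome biogenesis list fell in both genotypes, with medians of -1.38 in parental and -1.30 in cKO cells. Tsr1, needed for 40S maturation, changed by -1.55 ± 0.05 (adjusted p = 1.64e-14) in parental cells and Ddx21, a nucleolar helicase, by -1.72 ± 0.06 (adjusted p = 1.68e-14). Of 14 RNA polymerase I genes 14 fell in parental and 13 in cKO cells. Of 10 chaperones and importers of ribosomal proteins 9 and 8 fell, and 1 rose in parental cells, the importin Ipo9 (0.60; adjusted p = 2.61e-07). Of 15 other translation genes with TOP messages 13 and 15 fell; Eef2 at -0.15 (adjusted p = 0.0558) and Eif3f at 0.10 were not called in parental cells.

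Mitochondrial ribosomal protein genes serve the separate ribosomes that translate the mitochondrial genome. Of 78 such genes, 69 fell and 2 rose in parental cells (median -0.72), and 72 fell and 2 rose in cKO cells (median -0.92). At day 0, 18 of them rose and 9 fell in cKO cells, with a median of 0.10. At day 3, 3 rose and 11 fell, and at day 6, 4 rose and 27 fell. The shares over all tested genes were 15.1% and 16.5% at day 0, 6.32% and 9.39% at day 3, 19.9% and 25.7% at day 6, and from day 3 to day 6 32.6% higher and 32.7% lower in parental and 31.3% and 34.8% in cKO cells. Mrpl45, on chromosome 11, changed by -0.38 at day 0 and -0.65 at day 6 (adjusted p = 9.67e-05 and 2.48e-07).

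Between genotypes, the biogenesis genes gave 15 higher and 4 lower of 44 at day 0, 4 and 3 at day 3, and 15 and 5 at day 6. Polymerase I genes gave 6 and 2 of 14, 0 and 1, and 5 and 2 at the 3 days. The chaperones gave 4 and 2 of 10, 1 and 1, and 2 and 4, and the other TOP genes 10 and 1 of 15, 4 and 1, and 5 and 2. These stand beside 15.1% and 16.5% of all tested genes at day 0, 6.32% and 9.39% at day 3, and 19.9% and 25.7% at day 6, and several, such as the biogenesis genes at day 3, lie near those shares. Tpt1, a TOP message and growth-related protein, changed by 0.44, 0.22 and 0.27 at days 0, 3 and 6 (adjusted p = 4.79e-05, 0.0259 and 0.00237).

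Among 16 regulators of growth and TOP translation, 2 rose and 6 fell at day 0, 2 rose and 1 fell at day 3, and 7 rose and 4 fell at day 6 in cKO cells, against 15.1% and 16.5%, 6.32% and 9.39%, and 19.9% and 25.7% of all tested genes. From day 3 to day 6, 5 rose and 8 fell in parental and 7 rose and 7 fell in cKO cells. Of all tested genes 32.6% rose and 32.7% fell in parental and 31.3% rose and 34.8% fell in cKO cells. Myc, a known activator of ribosome genes, changed by 0.67 ± 0.12 at day 0 (adjusted p = 0.000405) and 0.82 ± 0.11 at day 6 (adjusted p = 1.55e-05). Larp1, on chromosome 11, which binds TOP messages, changed by -0.78 ± 0.06 at day 0 (adjusted p = 5.33e-08) and stood at -0.15 and -0.07 at the later days, which were not called (adjusted p = 0.119 and 0.417). Rptor, also on chromosome 11, and Mtor, parts of the mTOR complex that drives TOP translation, changed by -0.64 and -0.40 at day 6 (adjusted p = 1.76e-06 and 0.000217).

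Of 8 genes around Mdm2 and p53, 1 rose and 1 fell at day 0, 1 rose and 0 fell at day 3, and 6 rose and 1 fell at day 6 in cKO cells. From day 3 to day 6, 0 rose and 5 fell in parental cells, and 4 rose and 2 fell in cKO cells. Cdkn1a, a p53 target that arrests the cell cycle, changed by 1.86 ± 0.27 at day 6 (adjusted p = 8.27e-05), while Trp53 itself, on chromosome 11, stood at -0.12 ± 0.07 and was not called (adjusted p = 0.146). Rps27l, a p53-responsive copy of Rps27, changed by 0.49 ± 0.08 (adjusted p = 9.32e-05) at day 6. Of the 14 family members known to bind Mdm2, 9 rose and 1 fell at day 0, 0 rose and 3 fell at day 3, and 0 rose and 4 fell at day 6; the 14 fell from day 3 to day 6 in both genotypes. The 3 that fell at day 3 were its members on chromosome 11, Rpl23, Rpl26 and Rps27a. Without cKO day 0 replicate 3, Rpl23 and Rps27a were also called lower at day 0 (-0.24 and -0.35, adjusted p = 0.00762 and 0.0118). Of 25 members linked to Diamond-Blackfan anaemia or mouse phenotypes, 18 rose and 1 fell at day 0, 0 rose and 3 fell at day 3, 0 rose and 6 fell at day 6, and 25 fell over time in both genotypes. The 3 that fell at day 3 were again on chromosome 11, Rpl26, Rpl27 and Rpl38. Without cKO day 0 replicate 3, Rpl27 and Rpl38 were also called lower at day 0 (adjusted p = 0.0123 and 0.0156). Without cKO day 6 replicate 2, Rpl35a and Rps10 were not called at day 6 (adjusted p = 0.0897 and 0.0754). Counts of both lists are with all libraries, and those without these 2 libraries are not given here. For these lists too the shares over all tested genes were 15.1% and 16.5%, 6.32% and 9.39%, and 19.9% and 25.7% at the 3 days. Over time those shares were 32.6% higher and 32.7% lower in parental and 31.3% and 34.8% in cKO cells.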

How the data were processed

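The authors deposited a table of raw counts per Ensembl gene for 18 libraries, with no normalisation. Per the submitters' processing notes, Novoalign and DESeq2 1.10.0 and the builds mm10 and GRCm38 were used. The sources used here give neither the counting tool, its treatment of multiply mapped reads and its strand setting nor the annotation release. Coordinates, biotypes and exon lengths came from GENCODE M21, which held 25234 of the 25279 identifiers. Library depth ran from 13704958 to 26995420 counts.

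The main test was the robust quasi-likelihood F test of edgeR 4.0.16, which rests on limma 3.58.1, run under R 4.3.3. It used TMM factors, the 20267 genes that filterByExpr left and 1 mean per group across the 18 libraries (biological coefficient of variation 13.5%). Each of 7 contrasts was adjusted by Benjamini-Hochberg over every tested gene, and calls were made under 0.05. DESeq2 1.42.0 was an alternative. Tables and figures were made in Python 3.11.15 using scipy 1.17.1, pandas 2.3.3, numpy 2.4.6 and matplotlib 3.10.9. Shares of counts were compared with exact permutation tests. The steps were tested on simulated data.

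Members, lists, alternatives and the rule for naming genes were chosen with earlier results of these data known. Every member could be named; values were given for the 5 called members each way per contrast with the smallest adjusted p, the 5 highest and 5 lowest levels per length, the restricted copies and the smallest changes. From other lists up to 3 called genes each way and up to 2 not called could be named. Rplp1, Rps12 and the further genes listed by group were named after their values were seen. Of the lists, 3 polymerase I symbols and 1 TOP symbol were not analysed here, nor were the markers Mesp1, Msgn1, Hba-a1 and Hbb-bh1. Some results for single genes are not reported here.

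The alternatives were RLE factors, total counts, TMM without the members or without chromosome 11, no filter, at least 1 CPM in 3 libraries, DESeq2, the libraries of the contrast alone, members outside chromosome 11, other denominators for shares, and each library left out in turn. Adding 161 pseudogene rows to their member, members sharing under 25% of their sequence (16 genes) and summing cKO day 0 replicates 1 and 2 were added after seeing the data. Those 2 libraries had a chi-square per degree of freedom of 1.22 over 16175 genes, and other pairs at least 3.12, up to 93.9 for pairs with cKO day 6 replicate 2; they were kept as 2 libraries.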

Additional observations from a re-analysis of the deposited data

Results flagged for a closer look

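The change from day 3 to day 6 differed between genotypes, by a test of the difference itself, in 5 genes. The difference (cKO minus parental, log2) was -0.57 for Rpl39, -0.36 for Rps7, -0.35 for Rpl13a, -0.30 for Rps4x and -0.29 for Rpl30. The calls for Rps7, Rpl13a, Rps4x and Rpl30 were lost with no filter and in the fit of the contrast's own libraries, and that for Rpl39 was kept in all alternatives run.

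The genotype difference changed between day 0 and day 3, by the same kind of test, in another 5 genes. Day 3 minus day 0, it was -0.50 for Rpl37a, -0.45 for Rps19, -0.40 for Rps23, -0.37 for Rpl14 and -0.30 for Rplp0. Without cKO day 0 replicate 3, Rps23 gave -0.28, Rpl14 -0.26 and Rplp0 -0.20, none of them called.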

How the results depend on the processing

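No paired analysis was possible because the labels give no replicate numbers that libraries of different groups share. The fall from day 3 to day 6 was kept in every alternative run, with 78 or 79 genes lower and 0 higher when each library was left out; its median moved to -0.83 in parental and -1.05 in cKO cells with total counts, and between -1.04 and -0.99 and between -1.25 and -1.12 with libraries left out. Adding pseudogene rows changed no count. The 16 genes sharing under 25% of their sequence had medians of 0.33, 0.09 and -0.07 between genotypes at days 0, 3 and 6 and of -1.03 in parental cells from day 3 to day 6. The cause of each change below was not tested, except where fewer genes were counted. Shares of all tested genes called in these alternative fits are not given here.

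At day 0, 2 genes were lower with TMM computed without chromosome 11, 4 in the contrast's own libraries and 0 outside chromosome 11. With libraries left out, 29 to 60 were higher and 1 to 7 lower, with a median from 0.17 to 0.36. At day 3, 2 were higher with total counts and with TMM without chromosome 11, 23 in the contrast's own libraries, and 0 were lower outside chromosome 11; with libraries left out, 0 to 3 were higher and 4 to 7 lower, with a median from 0.03 to 0.12. At day 6, 5 were higher with RLE factors, with DESeq2 and in the contrast's own libraries, 6 with no filter, and 1 with total counts and with TMM without chromosome 11. Lower at day 6 were 28 with total counts, 8 with no filter and in the contrast's own libraries, and 6 outside chromosome 11; the median was -0.011 with no filter and -0.016 in the contrast's own libraries. With libraries left out, 1 to 3 were higher and 10 to 19 lower, with a median from -0.15 to -0.04.

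For the difference of the day 3 to day 6 change, 1 gene was higher with no filter, with DESeq2 and in the contrast's own libraries. Lower were 3 with RLE factors, 8 with total counts and 1 with no filter and in the contrast's own libraries, where the medians were -0.078 and -0.087. With libraries left out, 0 to 1 were higher and 1 to 10 lower, with a median from -0.22 to -0.13. For the genotype effect, day 3 minus day 0, 1 was higher with DESeq2 and in the contrast's own libraries. Lower were 11 with DESeq2, 17 in the contrast's own libraries and 10 with cKO day 0 replicates 1 and 2 summed. With libraries left out, 0 to 1 were higher and 1 to 10 lower, with a median from -0.28 to -0.094.

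The difference in the family's share of counts, cKO minus parental, reversed at day 3 to -0.0186 percentage points over protein-coding genes outside the mitochondrial genome and ran from -0.118 to 0.146 with libraries left out, below 0 without cKO day 3 replicate 1 or 3 and without parental day 3 replicate 1 or 3. It ran from 0.551 to 1.25 at day 0 and from -0.489 to -0.146 at day 6, and day 6 minus day 3 from -2.70 to -2.62 in parental and from -3.16 to -2.81 in cKO cells. Of 791 alternative values for single members, 696 kept their call and direction and 95 lost the call, none reversing. Depth limits the restricted copies, which had few counts after day 0.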
